A study of Mus musculus with 6 samples.

Results

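A set of 14025 binding sites was examined at which the forkhead factors Foxa1 and Foxa2 were both listed in mouse prostate tumor cells after 6 months of tamoxifen, and at which no Foxa1 region was listed after 2 weeks. A site belonged to the set when a region of the 6-month Foxa2 peak list on chromosomes 1 to 19 overlapped a 6-month Foxa1 region by at least 1 bp and overlapped no 2-week Foxa1 region. These sites, called new shared sites here, made up 40.4% (exact Clopper-Pearson 95% interval 39.9 to 40.9%) of the 34729 Foxa2 regions on those chromosomes. Of the other Foxa2 regions, 10190 overlapped Foxa1 at both times, 2579 overlapped Foxa1 at 2 weeks only, and 7935 overlapped no Foxa1 region. The sites were chosen by overlap of the peak lists themselves, so the size of the set is a description and not a result.

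The study profiled Foxa1 and Foxa2 with ChIP-seq, the sequencing of DNA that an antibody pulls down with its protein, in prostate tumor cells of C57BL/6 mice, with 1 library each for Foxa1, Foxa2 and input at each of the 2 times, 6 libraries in all. All groups had received tamoxifen, and no group without it was analysed here. The allele or transgene on which tamoxifen acted was not given in the sources used here, and neither was whether libraries shared chromatin or prostates. The protocol pools 3 prostates, so a library can hold every cell type of the tissue. With 1 library per group nothing here has a replicate check, no test between times was possible, and every interval covers counting error only. Read depth is unknown. The 2-week Foxa1 list held 53460 regions on these chromosomes, the 6-month Foxa1 list 35630 and the 2-week Foxa2 list 1, which no new shared site overlapped. A site called new is therefore one that was not listed for Foxa1 at 2 weeks. Weaker occupancy below the authors' threshold cannot be told apart from absence.

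Foxa1 and Foxa2 are pioneer factors: their winged-helix domain binds forkhead motifs in DNA that is wrapped on nucleosomes and makes it accessible to other factors. Foxa1 works at enhancers of luminal prostate cells. Foxa2 is a factor of the early endoderm, liver, gut and pancreas that is low in the adult luminal prostate and is known from neuroendocrine prostate tumors. The paralogs recognise nearly the same DNA motif.

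A few promoters overlapped these sites, and some of their sequences are given as examples of DNA at or beside the sites. The 5 promoters under the strongest new shared sites are printed, with those of Pcsk1 and Foxa2, shown because they belong to the neuroendocrine secretory and forkhead gene lists used below. Each run holds the 250 bases upstream of a listed RefSeq start site (GRCm38.p6, the assembly of mm10), read 5′ to 3′ on the gene's strand. Capitals mark the forkhead motif TGTTTAC, its variant with a changed second base (TATTTAC) and its variant with a changed sixth base (TGTTTGC), or their reverse complements. The Kcnk16 run is chr14:20269270-20269519 on the minus strand, Cbfa2t3 is chr8:122699110-122699359 on the minus strand, and Gm33388 is chr1:119305493-119305742 on the plus strand. Nt5c2 is chr19:46969569-46969818 on the minus strand, Myt1 is chr2:181766779-181767028 on the plus strand, Pcsk1 is chr13:75089607-75089856 on the plus strand, and Foxa2 is chr2:148046970-148047219 on the minus strand.
Kcnk16: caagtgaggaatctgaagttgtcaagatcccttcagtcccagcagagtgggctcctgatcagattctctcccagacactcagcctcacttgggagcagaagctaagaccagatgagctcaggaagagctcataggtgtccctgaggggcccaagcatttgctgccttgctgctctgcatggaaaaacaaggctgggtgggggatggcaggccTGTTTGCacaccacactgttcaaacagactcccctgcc
Cbfa2t3: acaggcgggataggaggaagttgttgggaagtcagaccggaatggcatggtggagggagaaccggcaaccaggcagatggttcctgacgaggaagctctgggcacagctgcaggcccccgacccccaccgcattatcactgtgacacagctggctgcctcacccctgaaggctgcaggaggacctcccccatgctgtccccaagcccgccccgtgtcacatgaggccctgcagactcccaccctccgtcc
Gm33388: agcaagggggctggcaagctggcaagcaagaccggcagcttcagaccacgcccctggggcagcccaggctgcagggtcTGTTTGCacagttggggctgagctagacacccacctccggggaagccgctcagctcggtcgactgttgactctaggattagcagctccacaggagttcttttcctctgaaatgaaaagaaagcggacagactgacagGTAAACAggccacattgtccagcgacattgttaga
Nt5c2: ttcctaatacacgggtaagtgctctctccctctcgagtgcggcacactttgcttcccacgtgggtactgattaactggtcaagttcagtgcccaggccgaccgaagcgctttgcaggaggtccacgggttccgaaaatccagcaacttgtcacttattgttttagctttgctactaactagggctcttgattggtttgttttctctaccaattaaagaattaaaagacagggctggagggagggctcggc
Myt1: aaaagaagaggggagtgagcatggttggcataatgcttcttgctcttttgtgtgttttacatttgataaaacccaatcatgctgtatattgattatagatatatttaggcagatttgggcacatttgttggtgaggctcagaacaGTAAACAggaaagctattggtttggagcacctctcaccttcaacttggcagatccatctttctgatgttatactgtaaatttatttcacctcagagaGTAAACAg
Pcsk1: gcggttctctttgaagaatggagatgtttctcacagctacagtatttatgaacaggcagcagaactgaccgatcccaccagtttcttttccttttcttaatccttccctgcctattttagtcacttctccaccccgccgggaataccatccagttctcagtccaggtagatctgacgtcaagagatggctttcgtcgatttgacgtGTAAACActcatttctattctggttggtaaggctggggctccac
Foxa2: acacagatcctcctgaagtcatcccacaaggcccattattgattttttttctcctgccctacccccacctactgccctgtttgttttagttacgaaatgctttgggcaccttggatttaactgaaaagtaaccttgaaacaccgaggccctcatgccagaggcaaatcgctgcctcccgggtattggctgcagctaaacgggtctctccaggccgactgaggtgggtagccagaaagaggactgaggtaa

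The new shared sites covered the runs of Kcnk16, Gm33388, Myt1, Pcsk1 and Foxa2 in full and those of Cbfa2t3 and Nt5c2 in part. At Cbfa2t3, Nt5c2 and Pcsk1 the Foxa2 summit lay outside the run, at 496, 1061 and 264 bp from the start site. Myt1, which encodes a zinc finger factor of neural and endocrine cells, carried 2 copies of the motif, both on the reverse strand, and the Foxa2 summit lay 25 bp from the start site. Gm33388 also carried 2, with the summit 11 bp from its start. Kcnk16, a potassium channel gene of the pancreas, and Pcsk1, which encodes a protease that matures prohormones, carried 1 each. The runs of Cbfa2t3, a corepressor gene, of the nucleotidase gene Nt5c2 and of Foxa2 held no match to these letters, which says nothing of binding elsewhere under the site.

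The sites were of intermediate strength and width in the Foxa2 list. Their median width was 394 bp (quartiles 248 and 677 bp), against 589 bp for Foxa2 regions with Foxa1 at both times and 213 bp for those with no Foxa1 region. The median fold enrichment, the authors' height of a peak over its local background, was 3.89 with a maximum of 16.9, and the median -log10 q was 4.82 (quartiles 3.36 and 8.29). A -log10 q of at least 5 was reached by 49.2% of them, against 65.8% of regions with Foxa1 at both times and 12.1% of those with none. Together the new shared sites spanned 7.50 Mb. Width and strength bear on whether a region overlaps another list, so these values describe the classes as they were drawn.

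The place of the new shared sites along the Foxa2 list was not at the top (see the bars by strength). Among the strongest 10% of Foxa2 regions they made up 37.9% (36.3 to 39.6%), while regions with Foxa1 at both times made up 61.9%. Their share was highest in the next parts, with 47.9% and 51.7%, where the regions with Foxa1 at both times had dropped to 50.2% and 38.9%. It then declined with each further part, from 46.9% to 28.2% in the weakest. Regions with no Foxa1 ran the other way, from 0.0576% in the strongest part to 46.0% in the weakest.

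**Figure D1:**
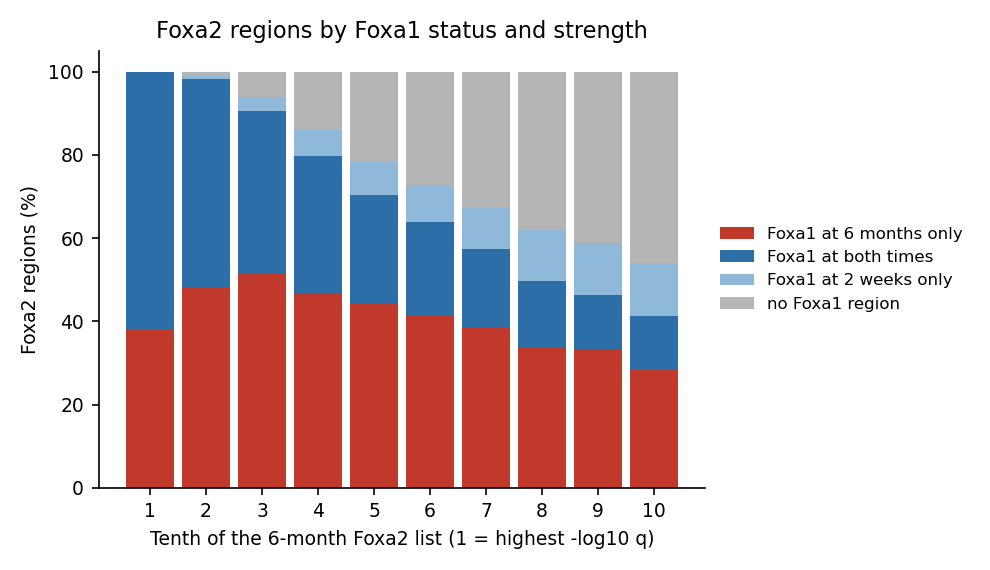
Share of each class (%, vertical axis) among the Foxa2 regions of 6 months in 10 equal parts ranked by -log10 q (horizontal axis, 1 is the strongest). New shared sites (red) ran from 37.9% in the strongest part through 51.7% in the next but one to 28.2% in the weakest.

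Positions of Foxa1 and Foxa2 within the sites were compared next. The sites were chosen by overlap of the 6-month regions, so overlap lengths and short distances between summits are largely set by that choice and are given as a description. The Foxa1 region that a new shared site overlapped had a median width of 570 bp, a median fold enrichment of 3.88 and a median -log10 q of 5.69 in its own list. The overlap had a median of 294 bp, or 90.7% of the Foxa2 region. The distance between the Foxa2 and the nearest Foxa1 summit had a median of 112 bp (quartiles 42 and 244 bp). Summits lay within 200 bp of each other at 9694 sites, 69.1% (68.3 to 69.9%), against 73.3% (72.4 to 74.2%) of Foxa2 regions with Foxa1 at both times. Across sites the fold enrichment of the factors had a Spearman rank correlation of 0.45 over the 14025 new shared sites and 0.62 over the 10190 regions with Foxa1 at both times. These points share libraries and chromosomal neighbours, and the correlations are descriptions. A single Foxa1 region was overlapped by 95.4% of the sites, and 647 overlapped 2 or 3. In reverse, the sites fell on 13358 Foxa1 regions, 37.5% of the 6-month Foxa1 list, and 1176 of those held 2 or more of them.

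Most of the sites lay at least 10 kb from any place where Foxa1 had been listed at 2 weeks. The rule removed every region that touched a 2-week Foxa1 region, so these distances are partly set by that choice. The same exclusion drew the class with no Foxa1 region. Distances expected from the number of 2-week regions alone were not computed, so the values are a description. The nearest 2-week Foxa1 region was at a median of 14.9 kb, against 11.6 kb for Foxa2 regions with no Foxa1. It was at least 10 kb away for 8014 sites, 57.1% (56.3 to 58.0%), and at least 100 kb away for 2054, 14.6% (14.1 to 15.2%). A smaller number lay beside an earlier site: 2203, or 15.7%, had a 2-week region at less than 1 kb, and 427 at less than 0.2 kb. For 1045 sites (7.45%) the 6-month Foxa1 region itself reached into a 2-week region that the Foxa2 region did not touch. The other 12980 sites (92.5%) had a Foxa1 region that was also absent from the 2-week list. At the edge of the rule, the sites in C9orf72, Abcb8 and Lrrc8d shared 1 bp with their Foxa1 region, and 86 shared 10 bp or less. Just outside, regions 4.74 kb from Lhx1, in Lypd6b and in Shroom3 overlapped a 2-week region by 2, 3 and 3 bp.

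New shared sites often came in groups. Another new shared site lay less than 1 kb away for 5035 of them, 35.9% (35.1 to 36.7%). Among Foxa2 regions the same measure within the class gave 31.4% (30.5 to 32.3%) for those with Foxa1 at both times and 11.4% (10.8 to 12.2%) for those with no Foxa1 region. The measure looks within a class only, and the unequal numbers of regions in the classes were not adjusted for. With a -log10 q of at least 5 in the 6-month lists, 15.6% of the remaining new shared sites had such a neighbour. The other classes were not counted at that setting. Joining new shared sites less than 1 kb apart, without the stricter q, gave 11139 groups, of which 2149 held at least 2 sites and 47 at least 5. The longest run, of 10 sites, stood at chr10:91439610-91448438, at 262 kb from the nearest protein-coding gene, Tmpo. Runs of 8 sites covered 7.79 kb at Snap25, 5.81 kb in St18 and 5.99 kb in Prox1, and a run of 7 lay 81.8 kb from Thsd7a. St18 encodes a zinc finger factor of the Myt1 family and Prox1 a homeobox factor. A site less than 1 kb from a Foxa2 region with Foxa1 at both times was the case for 2076, or 14.8%.

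The sites lay away from gene ends. A summit within 1 kb of either end of a protein-coding gene was found for 487 new shared sites, 3.47% (3.18 to 3.79%). The share was 6.36% (5.89 to 6.85%) for Foxa2 regions with Foxa1 at both times, 7.10% (6.13 to 8.16%) for those with Foxa1 at 2 weeks only and 4.63% (4.17 to 5.11%) for those with no Foxa1 region. The share was lower for new shared sites than for regions with Foxa1 at both times in 10 of 10 parts of the list ranked by -log10 q. The nearest gene end was over 50 kb away for 46.1% (45.3 to 47.0%) of the new shared sites and for 33.1% (32.2 to 34.1%) of regions with Foxa1 at both times, with new shared sites again higher in 10 of 10 parts. For regions with no Foxa1 it was 42.1% (41.0 to 43.2%), and that class was the higher in the sixth part of the list, with 44.6% against 42.7%, and in the weakest, with 41.4% against 39.7%. The 2-week Foxa1 list as a whole gave 4.81% within 1 kb and 32.6% beyond 50 kb. At 6 months the whole Foxa1 list gave 4.72% and 40.3%, and the whole Foxa2 list, which includes the new shared sites, 4.85% and 40.1%. A gene body held the summit of 54.9% of the new shared sites, against 58.8% with Foxa1 at both times and 58.2% with no Foxa1. No protein-coding gene had an end within 100 kb, and none held the summit, for 2477 sites, 17.7% (17 to 18.3%), against 10.2% (9.65 to 10.8%) with Foxa1 at both times and 14.2% (13.4 to 14.9%) with no Foxa1.

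**Figure D2:**
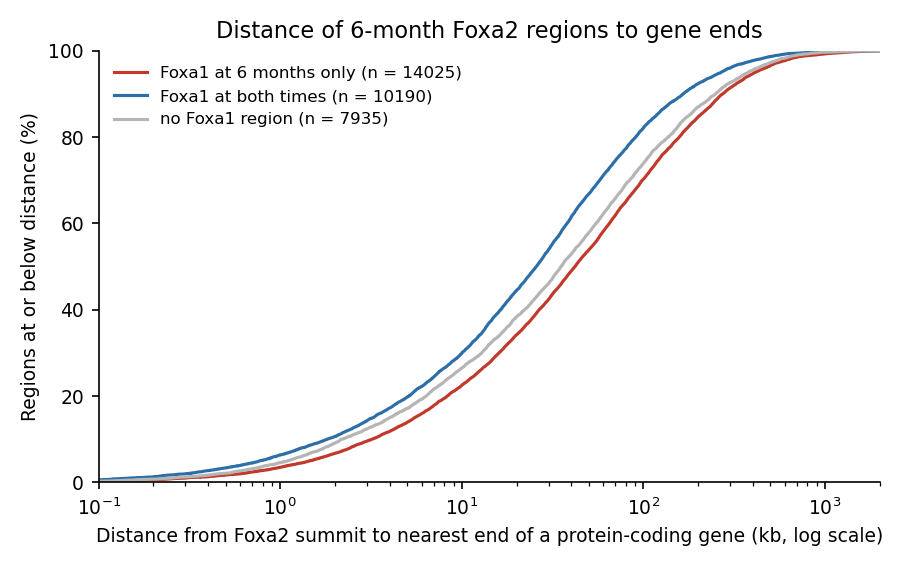
Cumulative share of 6-month Foxa2 regions (%, vertical axis) by distance from the Foxa2 summit to the nearest end of a protein-coding gene (kb, log scale), for new shared sites (red), regions with Foxa1 at both times (blue) and regions with no Foxa1 (grey). The red curve lies lowest, with a median of 41.9 kb against 25.7 kb and 35.1 kb.

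Every protein-coding gene whose body held the Foxa2 summit was assigned the site, and sites outside gene bodies went to the closest gene with an end within 100 kb. Such an assignment says nothing of which gene a site acts on. At least 1 new shared site was assigned to 4416 of 20665 genes, which is 21.4%. Of these, 2088 genes had exactly 1, 617 had at least 5, and 156, or 0.755% of all genes, had at least 10. Of the genes with a new shared site, 843 had no 2-week Foxa1 region, 19.1%, against 48.8% of all genes. Long genes collect more sites, and the part of gene length in these counts was not tested.

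The genes with the most new shared sites included chromatin, forkhead and neural genes (see the bars by gene). Cacna2d3, which encodes an auxiliary subunit of voltage-gated calcium channels, had 37, beside 12 Foxa1 regions at 2 weeks and 61 at 6 months. Chd7, a chromatin remodeller gene, had 35, beside 20 and 77. Foxp1, a forkhead gene, had 33, but it was already dense in Foxa1 at 2 weeks with 66 regions, and 33 more of its Foxa2 regions had Foxa1 at both times. Foxa2 itself had 29, beside 4 Foxa1 regions at 2 weeks and 51 at 6 months. Sdk1 and Cdh13, which encode cell adhesion proteins, had 30 and 26, with 6 and 1 Foxa1 regions at 2 weeks. Grip1, a synaptic scaffold gene, had 28, the mitochondrial carrier gene Slc25a21 26, 1700113H08Rik 26 and Syt1, the calcium sensor of vesicle release, 25. Prox1 had 21, of which 15 lay in its body. Auts2 (23), Tcf12 (22), Pde4d (21), Tenm2 (21), Thsd4 (21), Adgrv1 (20), Tcerg1l (20) and Tox (19) were also among the first 20. In Auts2, Pde4d, Tcf12 and Thsd4, as in Foxp1, 2-week Foxa1 regions were more numerous than new shared sites, with 46, 50, 27 and 22. In those genes many earlier regions were listed too, whereas in Cdh13, Prox1, Foxa2 and 1700113H08Rik few were. Assignment to the same gene does not show how close new and earlier regions lay. These counts leaned on weak sites and on close neighbours. With a -log10 q of at least 5 in both 6-month lists, Cacna2d3 had 14 new shared sites, Chd7 8, Foxa2 8 and Prox1 4. With regions under 1 kb apart joined, they had 22, 16, 14 and 8. With a reciprocal overlap of 50% they had 21, 14, 14 and 6.

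Several neuronal genes were among those with no 2-week Foxa1 region. Rbfox3, which encodes the neuronal splicing factor NeuN, and Sorcs1, a sorting receptor gene, had 16 new shared sites each. Pex5l had 15, Fam174a 13, Spock1 13, and the adhesion gene Cadm2, the postsynaptic scaffold gene Dlgap2 and the LIM homeobox gene Lmx1a 12 each. Cfap61 had 11, as had Ddc, which encodes the decarboxylase of dopamine and serotonin synthesis. In 27 genes with at least 5 Foxa2 regions every one of those regions was a new shared site. Among them were Rbfox3 (16 of 16), Lmx1a (12 of 12) and Syt9 (7 of 7), another calcium sensor of vesicle release. These examples were taken after their values were seen.

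**Figure D3:**
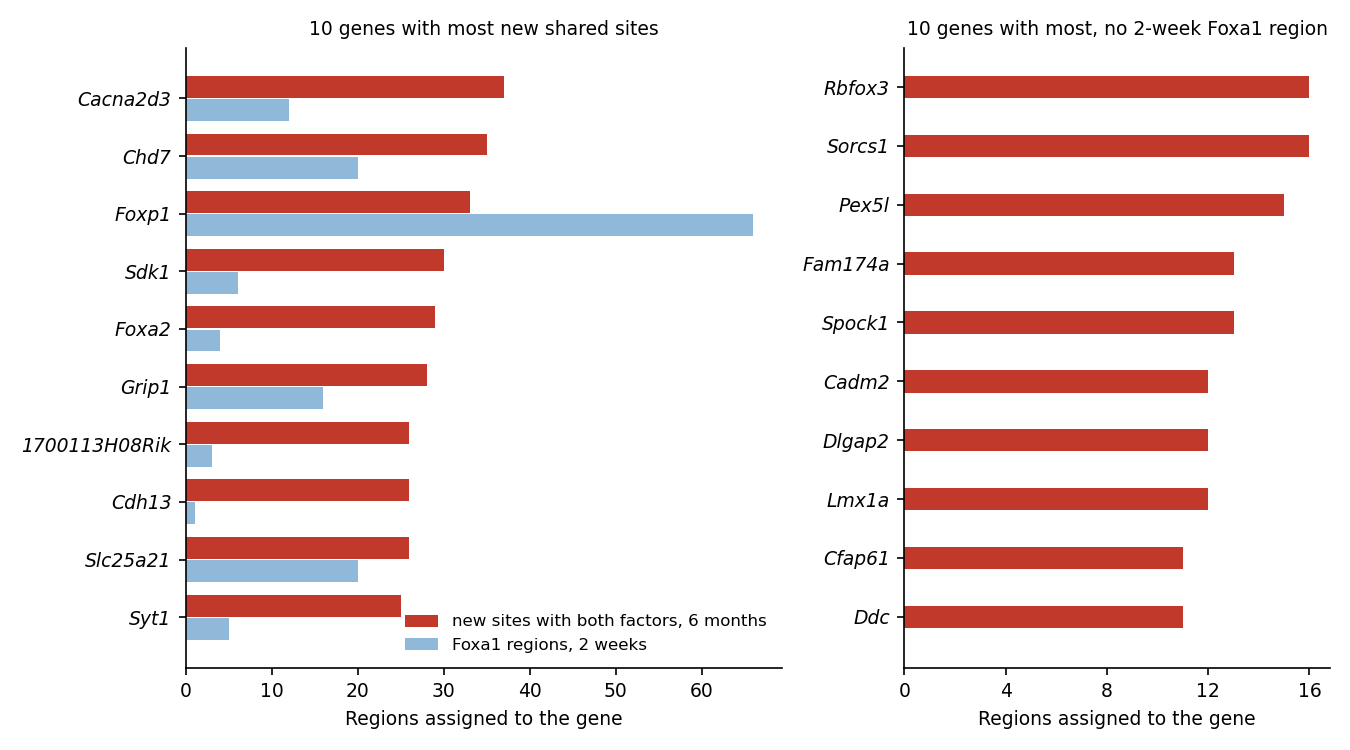
Regions assigned to a gene (number, horizontal axis) for the 10 genes with most new shared sites (left) and the 10 with most among genes without a 2-week Foxa1 region (right). Red bars are new shared sites at 6 months and blue bars Foxa1 regions at 2 weeks; Cacna2d3 leads on the left with 37 and 12, Rbfox3 and Sorcs1 on the right with 16 each.

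Gene groups were then described with 24 lists. The lists were drawn up with earlier results of these data known, so a count is no independent evidence of a direction. For each list 2 values were taken: the share of its genes with a new shared site, read against 21.4% of all genes, and the share of its Foxa2 regions that were new shared sites, read against 38.8% of all assigned Foxa2 regions. The first was above its background in 20 of 24 lists and the second in 11. The same 20 lists also had a larger share of genes with a 2-week Foxa1 region than the 51.2% of all genes. A first value above background was thus not particular to the new shared sites.

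Regulators of the neuroendocrine lineage had the highest share of regions. New shared sites made up 59 of the 91 Foxa2 regions of this list, 64.8%, and 10 of its 19 genes had at least 1, with a median of 1 per gene against 0 over all genes. They included Prox1 (21), St18 (12), Myt1 (6) and Mycn (4), an oncogene of neuroendocrine tumors. Insm1, a zinc finger factor gene of endocrine cells, had 2 Foxa2 regions, both new shared sites. No new shared site was assigned to Neurod1, Isl1, Pou3f2 or Neurog3. The median length of these genes, 19 kb, was near the 17.5 kb of all genes.

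Genes of synaptic vesicles and secretory granules came next, with 81 of 134 Foxa2 regions, 60.4%, in 13 of 19 genes. Syt1 (25), Snap25 (16), a fusion protein gene, Cplx2 (10), a regulator of vesicle fusion, and Pcsk1 (7) held most of them. Chga, the chromogranin gene used to diagnose neuroendocrine tumors, had 6 of 7 and no 2-week Foxa1 region assigned. Other genes of the list went the other way. Chgb, Eno2, Scg3, Syt4 and Uchl1 had no Foxa2 region, and none of the 3 Foxa2 regions of Scg2 was a new shared site. Neural genes of other kinds were also above the background of 38.8%. Calcium and potassium channel genes had 148 of 261 regions, 56.7% (Kcnh5 15, Kcnb2 11, Cacna1e 10), and 16 of 18 genes. Neural adhesion genes had 227 of 405, 56.0% (Tenm2 21, Cadm1 18, Nlgn1 18), and 18 of 19 genes. Axon guidance genes had 117 of 253, 46.2% (Dcc 16, Sema3e 15, Efna5 13, Nrp1 12), and 20 of 23 genes. Median gene length was 446, 974 and 278 kb in these lists, and the part of length in their shares of genes and of regions was not tested.

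Other transcription factor families varied. Sox factor genes had 64 of 130 regions, 49.2%, in 11 of 14 genes, led by Sox6 (17), Sox5 (16), Sox13 (6) and the stem cell and neural factor gene Sox2 (6). Forkhead genes had 85 of 196, 43.4%, in 7 of 15 genes, nearly all of them at Foxp1, Foxa2 and Foxn3 (17). Foxa1 itself had 3 of 11, its Foxa2 regions being mostly at places with Foxa1 at both times (7), and no new shared site there had a -log10 q above 2.56. Gut and liver endoderm factors had 15 of 31 regions, 48.4%, in 6 of 18 genes, with 7 at Pax9. Hnf4a had 1 and Pdx1 none. Partner and epithelial factors, such as Tead1 (10), Klf5 (6), Nfix (6) and Grhl2 (5), had 16 of 18 genes but 33.1% of regions, below the background. Grhl2 had 50 Foxa1 regions at 2 weeks and Nfib had 48.

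The luminal and basal lists differed in their share of regions, but few genes weighed heavily in each, and the difference was not tested. The luminal and androgen response list had 32 of 77 regions, 41.6%, in 7 of 16 genes, of which Abcc4 (12), Homer2 (8) and Cd24a (5) made up most. Krt8, Krt18, Fkbp5, Slc45a3, Msmb and Spdef had none, with 18 Foxa1 regions at 2 weeks for Fkbp5 and 8 for Slc45a3. Basal epithelium had 8 of 39 regions, 20.5%, in 4 of 12 genes. Itga6 alone held 16 of the 39, none of them a new shared site, so the low share rests largely on that gene. Trp63 had 2, and Krt5 and Krt14 had no Foxa2 region. Occupancy at a locus is not expression, so these counts do not show which cells the sample held.

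Lists of signalling and growth genes had shares of regions from 22.2% to 42.9%, with receptor kinases alone above 38.8%. Their shares of genes with a new shared site, from 25% (AP-1 and Hippo) to 72.2% (Wnt and TCF), were above 21.4%, apart from proliferation genes (8.33%). Receptor kinases and ligands had 42.9% of regions in 12 of 22 genes (Igf1r 8, Fgfr2 6, Kit 6, Gfra1 5), and chromatin genes 37.6% in 7 of 16, of which Chd7 held 35 of 53. Notch genes had 33.3% (5 of 15 genes; Dll1 4), mesenchymal transition genes 34.0% (5 of 11; Tcf4 10), and Wnt and TCF genes 31.7% (13 of 18; Tcf7l1 10, Lgr4 6). Cell cycle brakes had 27.0% (7 of 14; Btg1 5), TGF-beta, BMP and Id genes 25.3% (6 of 18; Id4 5, Tgfbr3 5), and AP-1 and Hippo genes 22.2% (4 of 16; Jun 3). Proliferation genes had 1 new shared site among 12 genes, at Mcm2.

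Markers of other cell types differed. Stroma had 1 of 11 regions, at Col1a1, and lists of immune cells (10 genes) and of seminal vesicle and urothelium (10 genes) had no Foxa2 region. Endothelial markers had 18 of 33, 54.5%, in 5 of 8 genes, with 7 at Cdh5 and 7 at Vwf. None of the 7 sites assigned to Cdh5 lay in its body, and Pecam1 and Eng had no Foxa2 region.

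**Figure D4:**
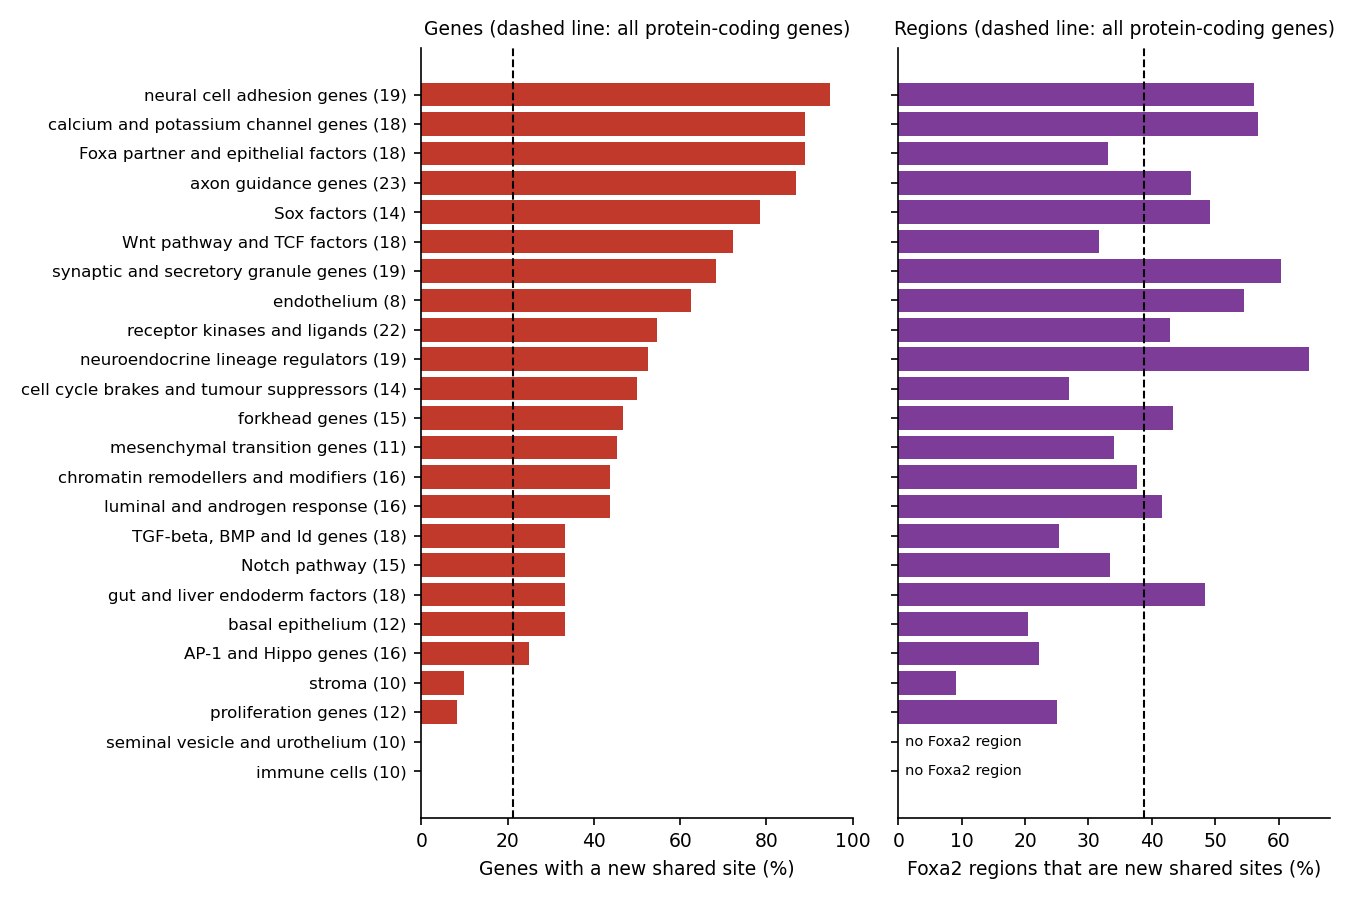
For 24 gene lists (number of genes in brackets), the share of genes with a new shared site (%, left) and the share of the list's Foxa2 regions that were new shared sites (%, right). Dashed lines mark 21.4% and 38.8%, the values over all protein-coding genes; neuroendocrine regulators are highest on the right with 64.8%.

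Around single neuroendocrine genes the sites were spread differently (see the maps of 3 genes). At Chga (chr12:102554941-102565027), all 6 sites lay upstream, between 26.9 and 0.332 kb from the gene. Their Foxa2 fold enrichment ran from 2.30 to 4.37 and no -log10 q exceeded 7.25, and at a -log10 q of at least 5 in both lists 1 site was left. The site nearest the gene reached the promoter window by its last base only. The nearest 2-week Foxa1 region was 66.2 kb away, and 15 such regions stood on the far side of the gene within the mapped 120 kb. There, Foxa1 was also listed at 6 months.

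At Myt1 (chr2:181763332-181827775), the 6 sites lay in the gene body, in its 5′ part. The strongest, chr2:181766546-181767294, had a fold enrichment of 7.13 for Foxa2 and 8.63 for Foxa1 and covered the printed promoter. At Snap25 (chr2:136713439-136782428), 6 of 16 sites were in the body and the others reached out to 72.2 kb. The 16 became 6 with a -log10 q of at least 5 in both 6-month lists, 6 with neighbours joined and 7 with a reciprocal overlap of 50%. At Myt1 the stricter q and the reciprocal overlap each left 3. Fold enrichment at Snap25 ran from 2.57 to 5.93, and 3 Foxa1 regions had been assigned at 2 weeks. At Syt9, fold enrichment ran from 2.48 to 14.6 over 7 sites, the strongest being chr7:107419747-107421276. The nearest 2-week Foxa1 region was at least 121 kb from each.

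The Foxa2 locus (chr2:148042877-148046969) carried 29 new shared sites, 2 of them in the gene body. They extended to 99.98 kb from the gene, which is the 100 kb limit of assignment, so any sites farther out were not counted here. The strongest, at chr2:147944301-147946666, had a fold enrichment of 10.8 and a -log10 q of 34.7. It lay 97.3 kb from the gene. The site over the promoter was weak, with a fold enrichment of 3.55 and a -log10 q of 3.58. At Prox1 (chr1:190118035-190170827) the strongest of 21 sites lay 71.2 kb away, with a fold enrichment of 6.65. In both loci several Foxa2 sites shared 1 broad Foxa1 region, so neighbouring sites are not separate observations.

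**Figure D5:**
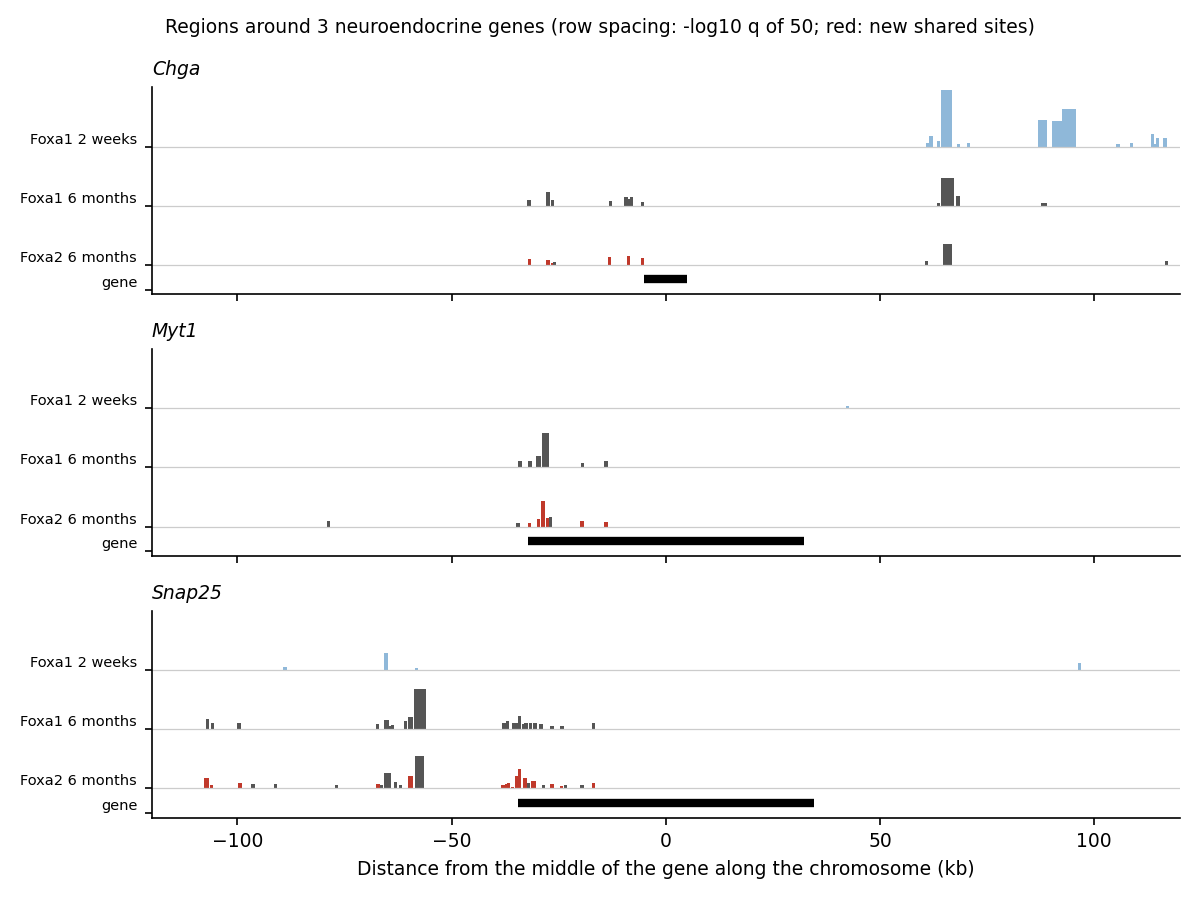
Listed regions around Chga, Myt1 and Snap25 by distance from the middle of the gene (kb, along the chromosome). Bar height is -log10 q in the region's own list, with a row spacing of 50; narrow regions are drawn with a minimum width. Red bars are new shared sites (6, 6 and 16 in the maps), grey bars other 6-month regions and blue bars Foxa1 at 2 weeks; the Myt1 map has 1 blue bar.

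The strongest new shared sites lay at genes of several kinds. After the site in Tcf7l1, a repressor of Wnt targets (chr6:72640323-72642619; -log10 q of 77.7), came sites 7.13 kb from Aopep, 98.2 kb from the neural factor gene Sox11, in Synrg and 419 kb from Mettl15. Their fold enrichments were 16.9, 14.0, 16.2, 12.4 and 16.1. The next lay in the potassium channel regulator gene Dpp6 (16), 255 kb from Otol1 (15.8), 95.7 kb from the protocadherin gene Pcdh7 (15.2), 19.97 kb from Glce (14.9) and in Syt9 (14.6). In all 10 the Foxa1 region enclosed the Foxa2 region, and summits lay between 5 and 102 bp apart. The 2-week Foxa1 list came close to some of these, with a region 1.25 kb from the site near Sox11 and 1.37 kb from that in Synrg, and stayed 196 kb away from that in Syt9.

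On a larger scale the sites were spread over every autosome. They made up between 38.4% (chromosome 11) and 44.5% (chromosome 8) of the Foxa2 regions of a chromosome. Windows of 1 Mb with 20 or more sites numbered 73 and held 12.9% of all sites. Among them was chromosome 12 from 73 to 74 Mb with 39 sites and 66 Foxa1 regions at 2 weeks. Chromosome 12 from 56 to 57 Mb had 38 (Slc25a21, Pax9), chromosome 4 from 8 to 9 Mb had 38 (Chd7) and chromosome 2 from 147 to 148 Mb had 34 (Foxa2). At 2 weeks these held 27, 38 and 20 Foxa1 regions.

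Promoter sequence gave a partial view of the DNA at the sites near genes, since a promoter needed only to overlap a site. Of 31365 RefSeq promoters of 300 bases on the autosomes, 204 (0.65%) were overlapped by a new shared site. Any of the 3 forkhead motifs, on either strand, was in 76 of the 204, 37.3% (30.6 to 44.3%), against 11.3% of all promoters. The share was 36.0% (31.5 to 40.7%) for the 439 promoters under Foxa2 regions with Foxa1 at both times and 32.4% (29.8 to 35.0%) for the 1292 under a 2-week Foxa1 region. These intervals overlap, and a difference in the forkhead motif between old and new sites was not tested. The 204 promoters belong to 169 genes, so they are not all independent. TGTTTAC alone was in 19.6% (14.4 to 25.7%), against 3.71% of all promoters. The variant TATTTAC was in 7.84% (4.55 to 12.4%), against 3.08%, and TGTTTGC in 13.2% (8.91 to 18.7%), against 5.09%.

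The GC content of these promoters differed from that of the others. The letters CCGCCC, the core of the GC box bound by Sp factors, were found in 28 of the 204 promoters under new shared sites, 13.7% (9.32 to 19.2%). They were in 36.9% (32.4 to 41.6%) under regions with Foxa1 at both times and in 36.0% of all promoters. The median GC content was 48%, 54% and 53% in the same order. The AP-1 motif TGANTCA was found in 7.84% (4.55 to 12.4%), against 7.74% with Foxa1 at both times, 12.5% under 2-week Foxa1 regions and 7.85% of all promoters. The E-box CAGCTG was in 25% (19.2 to 31.5%), against 20.7% and, over all promoters, 16.3%. The second E-box, CAGATG, was in 22.1% (16.6 to 28.4%), against 18.9% and 17.2%. The NFI site TTGGC was in 43.6% (36.7 to 50.7%), against 53.3% (48.5 to 58.0%) and 46.7%, and the letters AGAACA in 20.6% (15.3 to 26.8%), against 18% and 19%. Promoters are a small part of these sites, and nearby promoters of a gene share sequence.

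Some of the sites lay near microRNA genes. Of 919 listed RefSeq hairpins, 59 (6.42%) were within 5 kb of a new shared site, 58 within 5 kb of a Foxa2 region with Foxa1 at both times, and 191 (20.8%) within 5 kb of a region of the longer 2-week Foxa1 list. The strongest such site lay 1.37 kb from Mir490. The miR-200 family keeps cells epithelial, and its members Mir200c and Mir141 are shown because they lay 1.84 and 2.248 kb from one site, chr6:124720234-124720629, with a Foxa2 fold enrichment of 4.33. A 2-week Foxa1 region stood 3.93 kb from Mir141. Mir375, a microRNA gene of endocrine cells, had 3 sites within 5 kb, but a 2-week Foxa1 region stood 0.196 kb from it. These examples were chosen after their values were seen. Mature sequences are from RefSeq, with the seed (bases 2 to 8) in capitals, and no seed is shared among them.
mmu-miR-490-3p: cAACCUGGaggacuccaugcug
mmu-miR-200c-3p: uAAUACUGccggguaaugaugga
mmu-miR-141-3p: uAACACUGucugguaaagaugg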

How the data were processed

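Regions came from 4 deposited peak lists in MACS2 format, 1 library per list. For each peak the authors' columns give the fold enrichment, a ratio over local background, the -log10 of its p-value, the -log10 of its q-value, a score and a summit offset. In the deposited files the score is 10 times the -log10 q, cut to a whole number. Tools named per the submitters' processing notes are MACS2 2.1.1, bedtools 2.25.0, DiffBind 2.12.0, HOMER, Trim Galore 0.5.0, deepTools 3.2.1 and Bowtie2, with build mm10; their roles and any use of input as control were not given in the sources used here. Peak callers find more regions in deeper or cleaner libraries, so absence from a list depends on depth as well as occupancy. The smallest -log10 q listed corresponds to a q-value of 0.05. The input libraries were not analysed here.

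Overlaps and distances were computed in Python 3.11.15 (numpy 2.4.6, pandas 2.3.3), intervals with scipy 1.17.1 and figures with matplotlib 3.10.9. Overlap counts were equal to those of bedtools 2.31.1, and the steps were tested on simulated regions. Genes, promoters (250 bases before to 50 after a start) and their sequences came from RefSeq tables of GRCm38.p6. Start sites were listed for part of the genes, so the planned distance to a start site was replaced by that to the nearer gene end. Exons, introns and UTRs were not told apart, and motifs were sought in promoters only, without a genome sequence. The sites and the 24 gene lists (375 genes, 5 of them on X and not counted) were chosen with earlier results of these data known. Ezh2 stands in 2 lists. Named were the 20 genes with most new shared sites, the 10 with most among those without a 2-week Foxa1 region, the 10 strongest sites, up to 4 genes per list, Foxa1 and Foxa2, the promoters under the strongest sites, 3 sites on each side of the rule and 5 windows of 1 Mb; cell type marker genes and examples said to be chosen by their values were added. A few items selected in this way are not reported here.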

Additional observations from a re-analysis of the deposited data

How the results depend on the processing

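The lists are 1 library each, so a site called new can rest on 1 library's depth. The 14025 new shared sites numbered 7960 with a reciprocal overlap of 50% with Foxa1 at 6 months, 5298 with a -log10 q of at least 5 in the 6-month lists, 6064 with that minimum in all lists, and 9113 after regions under 1 kb apart were joined. The stricter q also cut the Foxa2 list to 15013 regions, and joining cut it to 24476. As a share of the Foxa2 list, the sites were 40.4% as reported and 22.9% with the reciprocal overlap. They were 35.3% with the stricter q in the 6-month lists, 40.4% with it in all lists and 37.2% when joined. Under 5 other settings the sites numbered from 9777 to 19358. Genes with a new shared site, 4416 as reported, numbered 2511 and 2785 under the stricter q in the 6-month lists and in all lists. Under the stricter q in the 6-month lists, summits within 200 bp made up 74.2%, sites at least 10 kb from 2-week Foxa1 66.8%, sites less than 1 kb from another 15.6%, and sites within 1 kb of a gene end 3.06%. With the stricter q in all lists, 72.0% lay at least 10 kb away, and with the reciprocal overlap 83.1% had summits within 200 bp. Settings chosen after seeing the data gave 32.8% in the strongest 10% of Foxa2 regions (reciprocal overlap), a forkhead motif in 42 of 86 promoters, 48.8% (stricter q), and, without sites less than 1 kb from 2-week Foxa1, 36.7% less than 1 kb from another and 3.10% at a gene end. Against the share of all genes under the same setting, 19 or 20 of the 24 lists were above it. Against the reported 21.4%, 15 were above under the stricter q in the 6-month lists, where 12.2% of all genes had a site. There, the number of genes with a site moved by over 1.5 times in 10 of the 24 lists and by less in 14. Among those that moved were Wnt and TCF genes (13 to 4) and endothelial markers (5 to 2). Counts per gene moved by over 1.5 times for 171 of the 214 genes compared (those with most sites and list genes with a site, not all of them named) under the stricter q, for 132 with the reciprocal overlap (added after seeing the data), for 85 when joined and for 30 without sites near 2-week Foxa1. Values for Cacna2d3, Chd7, Foxa2, Prox1, Chga, Myt1 and Snap25 stand beside them above where they moved that far. No paired analysis was possible because each group holds 1 library and the labels carry no replicate numbers.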

Other observations

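On the X chromosome, which the count of sites leaves out, 97 of 212 Foxa2 regions met the same rule, 45.8% (exact Clopper-Pearson 95% interval 38.9 to 52.7%, counting error only). Pls3, Tenm1 and Tmem164 had 3 each. Syp, the synaptophysin gene, had 1 Foxa2 region that was not a new shared site.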
